A study of Mus musculus with 6 samples.

Results

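The probes described here are those that an Agilent mouse array detected on exactly 2 of 3 healthy skin arrays and on none of 3 skin tumor arrays. A probe is a DNA sequence of 60 bases that binds the labelled copy of 1 transcript, and a probe counted as detected on an array where more than 0.5 of its spots were marked well above background by the scanner software. The rule took 295 of the 39430 probes that are not controls, after probes of the series for long intergenic noncoding RNA were left out, which is 0.748%. Members were chosen by their detection calls on these 6 arrays, which come from the same signals as any tumor difference, so every level and difference of a member below is a description and carries no test.

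The study compared biopsies of female FVB/N mice. The 3 healthy skin biopsies came from skin treated with acetone, the solvent. The 3 tumors, labelled as cutaneous squamous cell carcinoma, arose after topical DMBA, a carcinogen, followed by the promoting phorbol ester PMA (also called TPA) for 6 weeks, another DMBA dose in week 8 and PMA for 14 further weeks. The labels do not give the age of the mice or the time at which each tumor was taken, nor do they tie a biopsy to an animal, so spreads are those between these samples and may be technical. Each array received 0.2 µg of total RNA with a labelled integrity number of 9. Every probe for the skin genes Krt5, Krt14, Krt1, Krt10, Col1a1 and Col3a1 was detected on all 6 arrays. The wound keratins Krt6a and Krt16 were higher in the tumors by 6.20 and 5.49 on the log2 scale.

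A call of this kind concerns faint signals. Whole skin holds epidermis and hair follicles, and also dermis, fat, vessels, nerve endings and, in mouse, a thin sheet of striated muscle under the fat. A transcript made by a small share of these cells, or at low level by many, reaches an array as a signal just over the local background, where a call turns on small differences between arrays. Fewer cells of a type and less RNA per cell cannot be told apart in such whole biopsies.

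Sequences are shown for members on which the results below turn, each as bases 1 to 30 of the 60, read from the array's annotation, 5′ to 3′ and in lower case, with positions in the mouse build mm9 as that annotation gives them. The first set is 2 probes for Pgr, the progesterone receptor, and a probe for an unnamed Ensembl transcript that follows on the same strand; all 3 are members that lacked the call on the same array.
Pgr, chr9:8961434-8961493, plus strand: gagatgagatcaagctatatccgcgaattg
Pgr, chr9:8968492-8968551, plus strand: gtgtataaacacatggcatgtttagttagg
ENSMUST00000104915, chr9:8972423-8972482, plus strand: ggtttacagttgggtggagaggaaagatgg

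The second set pairs a member with another probe of the same gene that was detected on all 6 arrays: Hpca encodes hippocalcin, a neuronal calcium sensor, Taf12 a subunit of the general transcription factor TFIID, and Dnah8 an axonemal dynein heavy chain.
Hpca member, chr4:128788820-128788879, minus strand: agccacacggagcatcttggttctttttaa
Hpca other probe, chr4:128789510-128789569, minus strand: ttctggggtctgcactgtgtgtgtgtgtgg
Taf12 member, chr4:131837933-131837992, plus strand: tcattacagtgggcttacagcagttgctga
Taf12 other probe, chr4:131848802-131848861, plus strand: tatctaccagagaagattttgcctgtggtt
Dnah8 member, chr17:30800381-30800440, plus strand: cggagaacagaatttgacacagacttcaca
Dnah8 other probe, chr17:31012150-31012209, plus strand: tatgtctcctgcctgataggtgcttcatta

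The third set is single members with large differences: Scn2a, a neuronal voltage-gated sodium channel, which the array measures with 10 spots, Matn1, the cartilage matrix protein matrilin 1, and Opn1mw, the cone opsin for middle wavelengths, whose probe covers 6920 bases of the genome and so aligns in pieces.
Scn2a, chr2:65603503-65603562, plus strand: acacacggaaagggtatacttctcatttca
Matn1, chr4:130511217-130511276, plus strand: tgtgtgagcgactgcgttcgttatttttcc
Opn1mw, chrX:71389017-71395936, plus strand: accggcagtttcgaaactgcatcttacatc

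The call pattern of the members was one of 16 possible. On 315 probes all 3 healthy arrays had the call and no tumor array had it, and on 831 probes 1 healthy array alone had it. The mirror pattern, 2 tumor arrays and no healthy array, held 670 probes, of which 621 were detected on tumor 2 and tumor 3. No array detected 9086 probes, and all 6 detected 20688. Among probes detected on exactly 2 arrays, the 3 pairs of healthy arrays held 169, 82 and 44 probes, whereas pairs of 1 healthy and 1 tumor array held between 3 and 114.

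**Figure D1:**
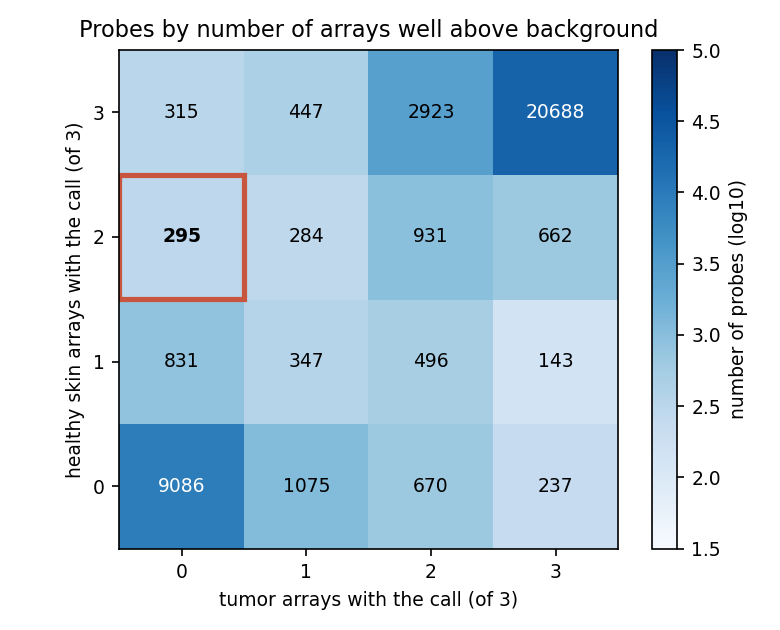
Number of probes (39430 in all) by the number of healthy skin arrays (vertical axis) and tumor arrays (horizontal axis) with the call; colour is the log10 of the number. The outlined cell holds the 295 members, beside 315 probes with the call on all 3 healthy arrays and 831 with it on 1.

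The array without the call was healthy skin 3 for 169 members (57.3%), healthy skin 1 for 82 (27.8%) and healthy skin 2 for 44 (14.9%). The limit for a call differed between arrays. It equalled 5 times the additive error that the software estimated for the array, at 0 discrepant spots on each array, together with the software's test that a spot is above background. As a share of the array's 75th percentile, to which signals were scaled, the limit was 3.42, 3.03 and 5.60% on healthy skin 1, 2 and 3 and 9.23, 2.11 and 1.85% on tumor 1, 2 and 3. The highest limits were thus those of tumor 1, whose median local background was 85 intensity units (23 to 26 elsewhere), and of healthy skin 3, whose 75th percentile was 242 units (525 to 897 elsewhere). For 194 members even the brighter of the 2 healthy signals was below the limit of tumor 1, so an equal scaled signal would not have given a call there. Of the 169 members without the call on healthy skin 3, 66 had a scaled signal there above the limit of healthy skin 1. The part of these limits in the choice of members was not tested.

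Most members lay close to the limit on both sides. The signal divided by the array's own limit had a median of 1.32 on the fainter of the 2 healthy arrays with the call and 1.95 on the brighter. On the healthy array without the call the median was 0.57, and on the highest tumor array it was 0.56. The fainter call was less than 1.1 times the limit for 65 members, the signal on the array without the call was at least 0.9 of its limit for 36, and the highest tumor signal was at least 0.9 of its limit for 30. At the other end, 8 members reached at least 10 times the limit on their brighter array. Only 11 members had both calls at 2 times the limit or more together with less than 0.5 of the limit on the other healthy array and on every tumor array. Members just inside the spot rule were Tnmd, with 0.4 of its 10 spots called on healthy skin 3, and just outside it were Kera, with 0.7, 1 and 1 of its spots called on the healthy arrays, and Lep, with 0.2, 1 and 0.5.

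**Figure D2:**
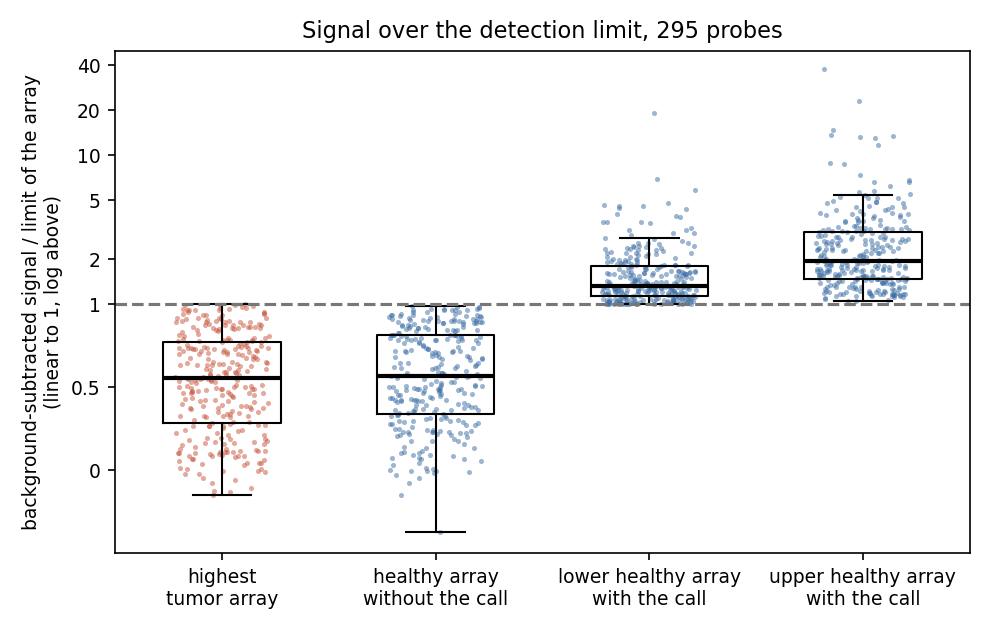
Background-subtracted signal divided by the array's own limit for each of the 295 members (points; boxes give quartiles and the median, whiskers reach 1.5 interquartile ranges), on an axis that is linear up to 1 and logarithmic above. The dashed line is the limit; the medians from left to right are 0.56, 0.57, 1.32 and 1.95.

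On the scaled log2 values the members' median difference, tumor minus healthy skin, was -2.07. The same median was -3.30 for the probes with the call on all 3 healthy arrays and no tumor array, -1.20 for those with it on 1 healthy array, 1.35 for the mirror pattern and -0.19 for all 39430 probes. The scale matters for faint signals: with spike-in scaling the members' median was -1.18 while that of all probes was 0.68, and in the authors' deposited table, which keeps the background in the signal, it was -0.57. In a limma fit over all 55501 probes with complete values, 8.16% passed an adjusted p under 0.05, of which 37.1% were higher in the tumors (61.6% after scaling to the array median and 77.8% after scaling to the spike-ins). The share called lower was 5.14%, and 43 of 294 members were among them; nothing is read from that count, since the rule used this contrast.

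The healthy array without the call lay between the other 2 and the tumors for many members. All 3 healthy signals, the one without a call included, were above all 3 tumor signals for 160 of 295 members, beside 20.1% of all probes with complete values; this count is also fixed in part by the rule. The healthy array without the call exceeded tumor 2 and tumor 3 for 264 members, and it lay below every tumor array for 7. Tumor 1 entered many of these comparisons through a substitute value, since the software had replaced a signal it did not find above background with a small number for 75.6% of members on tumor 1, 36.3% on tumor 2 and 32.9% on tumor 3, against 1.02, 1.02 and 10.5% on the healthy arrays.

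**Figure D3:**
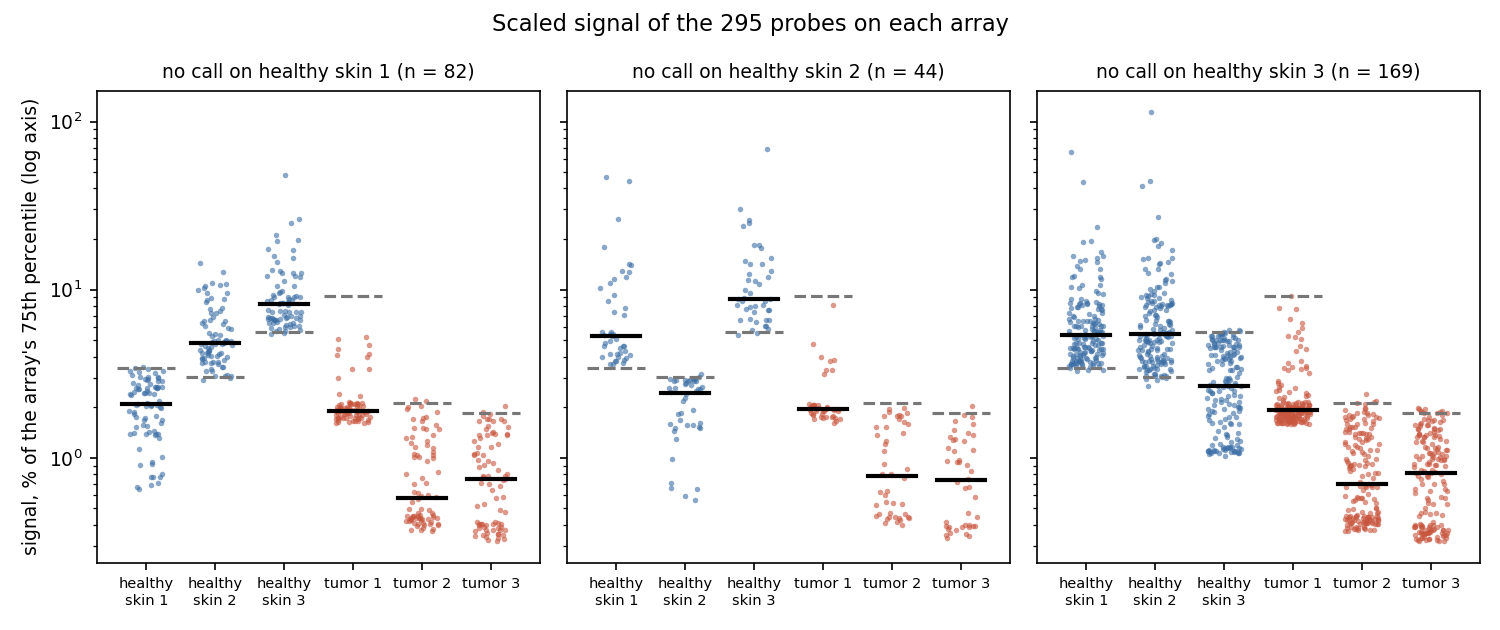
Signal of each member on each array as a percentage of the array's 75th percentile (log axis), split by the healthy array without the call (82, 44 and 169 members). Black bars are medians and dashed lines the array's limit as computed from background-subtracted signal, which the plotted processed signal can cross slightly; the limit of tumor 1 (9.23%) lies above both called healthy signals for 194 members.

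Since no tumor array had the call, the size of a difference has only a bound. It sets the mean of the 3 healthy log2 values against the mean, over the tumors, of the probe's signal there, raised where needed to the lowest signal called on that array, and is written "at least N-fold". Only tumor values were raised, and the healthy array without the call entered at its own value, in some members a substitute value. The words "at least" thus concern the tumor side only and hold for this scaling. The bound was above 1 for 274 members, at least 2-fold for 63 and at least 3-fold for 14; for the other 21 no fold is given. Tumor 1 sets much of it: over tumor 2 and tumor 3 alone the bound was at least 2-fold for 235 members.

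The largest bound belonged to Ctxn3, cortexin 3, a small membrane protein of neurons. Its signal was 66.0 and 114% of the 75th percentile on healthy skin 1 and 2 but 1.63% on healthy skin 3, and 2.06, 1.85 and 1.57% on the tumors, for a bound of at least 7.95-fold. The array without the call thus read as low as the tumors. The 10 spots of this probe agreed: 10 of 10 were called on healthy skin 1 (344 ± 30.5 intensity units, SD over spots) and on healthy skin 2 (749 ± 76.0), and 0 of 10 on healthy skin 3 (3.51 ± 3.84). On tumor 2 and tumor 3, 2 and 4 of the 10 spots were called, under the share the rule asks for.

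Scn2a also had 10 spots. It read 15.1, 14.5 and 3.76% on healthy skin 1, 2 and 3 and 1.94, 0.776 and 0.728% on the tumors (at least 3.24-fold), and 2 of its 10 spots were called on healthy skin 3. Tnmd, tenomodulin, a tendon membrane protein, was the third member with 10 spots. Its signals of 5.25, 4.54 and 5.44% on the healthy arrays were nearly level, and the tumors read 1.95, 0.487 and 0.472% (at least 1.75-fold). Tnmd thus lacked the call on the healthy array where its scaled signal was highest, whereas Ctxn3 on that array read as in the tumors.

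**Figure D4:**
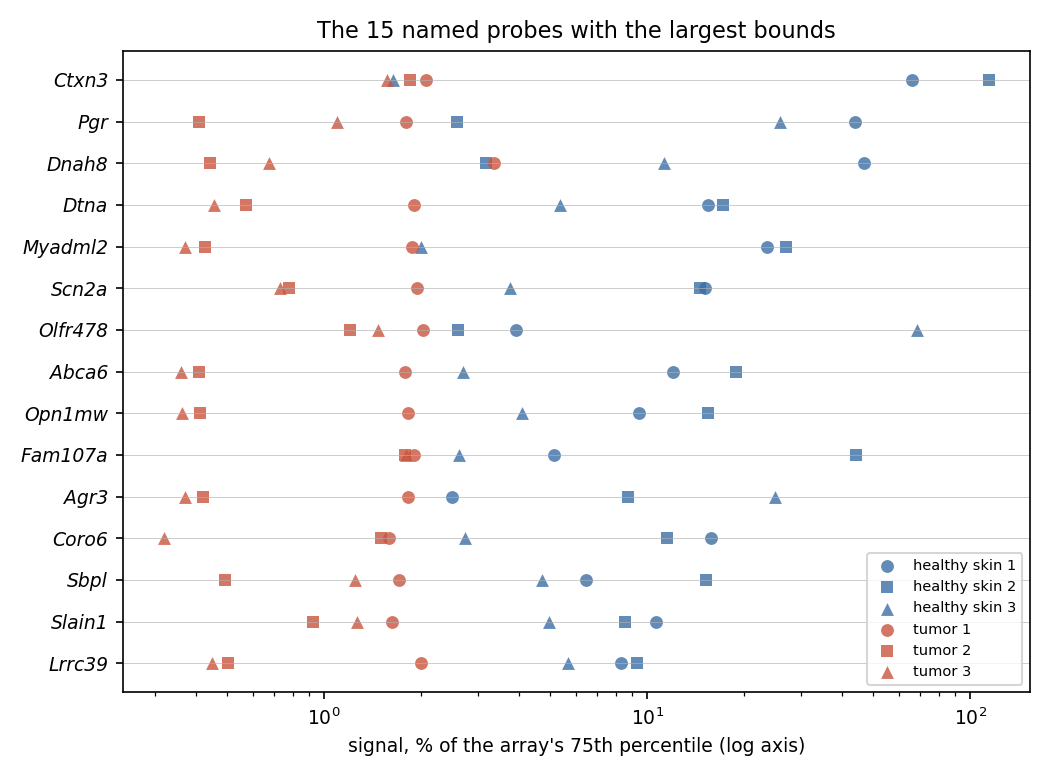
Signal on each array, as a percentage of the array's 75th percentile (log axis), for the 15 members with a gene name and the largest bounds, from Ctxn3 (at least 7.95-fold) to Lrrc39 (at least 2.62-fold). Blue marks are healthy skin arrays and red marks tumor arrays; the healthy array without the call lies near or among the tumor marks for Ctxn3, Dnah8 and Myadml2 and well apart from them for Dtna and Lrrc39.

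Receptors for hormones and other signals were grouped after their values were seen. The Pgr probe at the higher coordinate read 44.1, 2.57 and 25.8% on healthy skin 1, 2 and 3 and 1.8, 0.408 and 1.09% on the tumors, at least 4.94-fold. The other Pgr probe read 12.7, 0.987 and 6.65% on the healthy arrays and 1.93, 1.1 and 0.391% on the tumors, at least 1.51-fold. Pgr was the only gene with 2 member probes among the 218 genes named, and both of its probes were high on healthy skin 1 and 3 and low on healthy skin 2. The probe for the unnamed transcript beyond Pgr had the same order, with 26.3, 2.65 and 14.2% on the healthy arrays and 1.84, 0.432 and 0.371% on the tumors. These 3 probes target neighbouring stretches of 1 strand and were read on the same arrays, so they are not independent samples.

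Tshr, the thyrotropin receptor, had another order, with 0.912, 10.8 and 26.2% on healthy skin 1, 2 and 3 against 1.72, 0.399 and 0.344% on the tumors (at least 2.20-fold). The scaled value of healthy skin 1 was below that of tumor 1, which was a substitute value. The background-subtracted signal was -10.0 intensity units on tumor 1 and 4.84 on healthy skin 1. The overlap of the groups thus holds for the scaled values only. Ffar4, a receptor for long-chain fatty acids, read 5.51, 12.5 and 5.53% in healthy skin and 1.75, 0.409 and 1.55% in the tumors, with no overlap (at least 2.5-fold). Nr3c2, the mineralocorticoid receptor, differed less, with 2.91, 4.97 and 6.16% against 2.11, 1.56 and 1.55% (at least 1.54-fold).

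Several members are known from striated muscle, again grouped after their values were seen. Lrrc39, a protein of the sarcomere's M-band, read 8.30, 9.29 and 5.69% on healthy skin 1, 2 and 3 and 2.0, 0.503 and 0.451% on the tumors (at least 2.62-fold). Mir1a-1hg, the host transcript of the muscle microRNA miR-1a, read 7.28, 10.4 and 5.72% against 2.01, 0.453 and 0.398% (at least 2.61-fold). Tmem182, a muscle membrane protein, read 8.37, 9.10 and 5.16% against 1.96, 0.561 and 0.400% (at least 2.53-fold). Fbxo40, a ubiquitin ligase subunit of muscle, read 5.63, 7.88 and 4.99% against 1.99, 1.11 and 0.822% (at least 2.09-fold). Dtna, α-dystrobrevin of the dystrophin complex, read 15.4, 17.2 and 5.37% against 1.90, 0.572 and 0.456% (at least 3.88-fold). All 5 lacked the call on healthy skin 3, as did 169 of all 295 members (57.3%). None of the 5 had a healthy signal as low as a tumor signal, which was also so for 160 of all 295 members.

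Other muscle genes were also lower in the tumors. Of 184 probes on a list of skeletal muscle genes, 117 were called lower and 3 higher by the limma fit (5.14% of all probes were called lower), and the list's median difference was -3.49 beside -0.19 for all probes. Only 1 probe of that list (0.54%, beside 0.748% of all probes), for the ubiquitin ligase subunit Asb12, was a member. It read 3.76, 5.04 and 5.52% on healthy skin 1, 2 and 3 and 1.85, 0.430 and 0.377% in the tumors. Over the 183 other probes the median scaled log2 level was 0.95, 1.13 and -0.15 on healthy skin 1, 2 and 3 and lay between -2.77 and -2.42 on the tumors. Healthy skin 3 was thus also the lowest healthy array for the list as a whole. The part of muscle content in the members' values was not tested.

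Myadml2 and Coro6, a coronin that binds actin, showed a fall of healthy skin 3 to or near the tumors' range. Myadml2 read 23.5, 26.9 and 1.99% in healthy skin and 1.87, 0.428 and 0.370% in the tumors (at least 3.72-fold). Coro6 read 15.8, 11.5 and 2.72% against 1.59, 1.5 and 0.319% (at least 2.73-fold).

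Members known from neurons did not share 1 order of the healthy arrays. The Hpca member read 18, 1.52 and 12.9% on healthy skin 1, 2 and 3 and 1.72, 0.798 and 0.346% on the tumors (at least 2.43-fold), so healthy skin 2 was below tumor 1. Kcnip4, which modulates A-type potassium channels, read 4.32, 2.87 and 11.5% against 1.89, 0.430 and 0.379% (at least 1.8-fold). Kcng1, a modifying potassium channel subunit, was high on healthy skin 3 alone, with 1.69, 4.01 and 21.1% against 1.91, 0.584 and 0.389% (at least 1.8-fold). Glrb and Gabra3, subunits of the glycine and GABA(A) receptors, had bounds of at least 1.67-fold and 1.03-fold. In the families the members were 2 of 140 potassium channel probes (1.43%) and 1 of 59 calcium and sodium channel probes (1.69%). Among 118 neurotransmitter receptor probes 2 were members (1.69%). The share over all probes was 0.748%, and nothing is read from such small counts. No member came from a list of 101 probes for neuron marker genes, of which 35 were detected on no array.

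Cartilage and tendon genes gave 3 members of 56 probes on a list of dermal fibroblast and cartilage genes (5.36%, beside 0.748% of all probes). Matn1 read 14.3, 1.51 and 18.5% on healthy skin 1, 2 and 3 and 2.0, 0.464 and 0.390% on the tumors (at least 2.54-fold). Snorc, a chondrocyte proteoglycan, was also lowest on healthy skin 2 among the healthy arrays, with 12.8, 2.70 and 8.53% against 3.31, 0.538 and 1.11% (at least 2.30-fold). In both, the scaled value of healthy skin 2 was below that of tumor 1. For Matn1 the value of tumor 1 was a substitute. Its background-subtracted signal was -12.8 intensity units on tumor 1 and 9.15 on healthy skin 2. The third is Tnmd, described above.

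Immune genes gave 4 members on the fixed lists, where 0.748% of all probes are members. They were 1 of 28 B cell and plasma cell probes and 1 of 47 T cell and NK cell probes. The other 2 were among 65 myeloid, Langerhans and mast cell probes. The limma fit called 1 probe higher and 1 lower on each of the first 2 lists. On the myeloid list it called 11 higher and 6 lower. Over the 39314 probes tested outside the long intergenic series, the fit called 1477 higher and 2294 lower. Tnfrsf17, the plasma cell receptor BCMA, read 6.06, 11.5 and 3.76% in healthy skin and 1.84, 1.25 and 0.339% in the tumors (at least 2.21-fold). Mrgprb1, a Mas-related receptor, read 1.37, 5.88 and 19.6% against 1.72, 1.72 and 1.65% (at least 1.86-fold). Healthy skin 1 was below all tumors in these scaled values, where tumor 1 held a substitute. The background-subtracted signal was 3.06 intensity units on tumor 1 and 7.56 on healthy skin 1. Cd209a, a C-type lectin of dendritic cells, read 1.73, 4.73 and 6.76% against 1.77, 0.405 and 0.352% (at least 1.31-fold). Cd247, the T cell receptor zeta chain, has no bound above 1; it read 3.96, 2.93 and 1.52% against 1.72, 0.816 and 0.346%.

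Cd209c, a lectin gene whose probe lies 196552 bases from that of Cd209a on chromosome 8, was a member too. Its probe read 4.80, 8.21 and 4.53% against 5.94, 0.424 and 1.03%, so tumor 1 was above 2 of the 3 healthy arrays. Member probes near each other, of related genes or not, made 17 pairs within 200 kb. In 9 pairs both lacked the call on the same array, among them the Pgr probes and the transcript beyond Pgr. The share to be had from unlinked members was not computed, and 57.3% of all members lacked the call on healthy skin 3. The 17 pairs include the drug transporters Slc47a2 and Slc47a1, whose probes lie 42717 bases apart on chromosome 11. Slc47a1 read 10.3, 3.83 and 2.0% against 2.54, 1.08 and 0.842%, and Slc47a2 read 4.21, 4.85 and 5.41% against 2.0, 1.14 and 0.398%. The order of the healthy arrays thus differed between the neighbours, although both lacked the call on healthy skin 3.

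Cilium and opsin genes ranged from large to small bounds. The Dnah8 member read 46.8, 3.17 and 11.2% in healthy skin and 3.34, 0.444 and 0.674% in the tumors (at least 4.09-fold), with healthy skin 2 just below tumor 1. Drc3, a regulator of ciliary dynein, read 14.8, 3.11 and 1.15% against 1.85, 1.27 and 1.68% (at least 1.28-fold), so its call on healthy skin 1 stood well apart and healthy skin 3 was below every tumor. Opn1mw read 9.46, 15.4 and 4.11% against 1.82, 0.413 and 0.362% (at least 2.91-fold), without overlap. Opn1sw, the short-wave cone opsin, read 1.52, 4.80 and 6.33% against 2.08, 1.48 and 0.781% (at least 1.24-fold).

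Other members with large bounds were high on 1 healthy array above all. Olfr478, an olfactory receptor, read 68.6% on healthy skin 3 but 3.93 and 2.59% on healthy skin 1 and 2, and 2.02, 1.20 and 1.47% in the tumors (at least 3.06-fold). It was 1 of 7 members among 1539 probes for olfactory and vomeronasal receptors (0.455%, beside 0.748% of all probes). Of the 1539 probes, 1166 were detected on no array. The member for Fam107a, an actin-associated protein, read 44.3% on healthy skin 2 but 5.16 and 2.61% on healthy skin 1 and 3. In the tumors it read 1.78 to 1.89% (at least 2.82-fold). Another probe of this gene, detected on all 6 arrays, read 441, 902 and 2986% on healthy skin 1, 2 and 3. That probe was thus highest on healthy skin 3, where the member lacked the call. In the tumors it read 66.0 to 111%. Accsl read 0.801, 10.6 and 47.9% on healthy skin 1, 2 and 3, and 1.73, 1.94 and 0.806% in the tumors (at least 2.52-fold). Agr3, of the anterior gradient family, read 2.48, 8.74 and 24.8% against 1.82, 0.422 and 0.370% (at least 2.81-fold). For Accsl, the lowest scaled value was that of healthy skin 1, just under tumor 3. Its background-subtracted signal was 4.27 intensity units on healthy skin 1 and -3.85 on tumor 1, where the scaled value is a substitute.

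Abca6, a lipid transporter of the ABC family, read 12, 18.9 and 2.68% in healthy skin and 1.77, 0.408 and 0.359% in the tumors (at least 2.92-fold). Sbpl and Slain1, the latter a microtubule-binding protein, had bounds of at least 2.67-fold and 2.65-fold. Bex4 and Nap1l5, both without the call on healthy skin 1, had bounds of at least 2.19-fold and 2.15-fold. The beta-defensin Defb28 read 10.9, 0.660 and 24.0% against 1.73, 0.853 and 0.344% (at least 1.92-fold). Healthy skin 2 was below tumor 1 and tumor 2 in these scaled values, where tumor 1 held a substitute. The background-subtracted signal of Defb28 was -20.9 intensity units on tumor 1 and 4.62 on healthy skin 2. Among 495 probes for solute carriers 7 were members (1.41%, beside 0.748% of all probes). They include Slc27a2, a fatty acid transporter (at least 1.41-fold), and Slc18a2, the vesicular monoamine transporter (at least 1.35-fold).

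The remaining lists and families held at most 2 members each. Zfp395 and Zfp354b, of 670 zinc finger probes, had bounds of at least 2.06-fold and 1.67-fold. Cyp4f37, a cytochrome P450, had 1.62-fold or more, and Pgm5, of the smooth muscle list, 1.42-fold or more. Chrdl1, a BMP antagonist, had a bound of at least 1.41-fold, and Serpina5, the protein C inhibitor, of at least 1.24-fold. Ugt8a, which makes the galactolipid of myelin, had 1.19-fold or more and Wnt2, a Wnt ligand, 1.16-fold or more. Trpm1, a channel of melanocytes, and Sptlc3, a subunit of the enzyme that starts sphingolipid synthesis, had no bound above 1. Of the 21 lists, 9 had no member, among them those for adipocyte, sebaceous gland, hair follicle stem cell and wound keratin genes, and of the 16 symbol families 7 had none, among them keratins and collagens. In all, 40 members were on a list or in a family.

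In 4 members the healthy array without the call lay furthest below all tumors in the scaled values. They were Mrgprb1 and Drc3, given above and both with a substitute on tumor 1, Tspan18, a tetraspanin, and Acer2, an alkaline ceramidase. Tspan18 read 4.19, 1.29 and 7.94% in healthy skin and 2.02, 1.63 and 1.59% in the tumors. Acer2 read 3.29, 3.69 and 1.29% against 3.44, 1.8 and 1.49%, so that tumor 1 exceeded 2 healthy arrays and the log2 difference was only -0.25.

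Other probes of the same genes give a second reading of these transcripts. They come from the same RNA and the same contrast, so they too are described and not used as support. Of the 218 genes named, 97 had 125 further probes outside the members; 33 of these were detected on no array, 74 on all 3 healthy arrays and 35 on all 6. Among the 80 detected on at least 3 arrays, 70 were lower in the tumors and 10 higher, with a median difference of -2.30 beside -0.08 for all probes so detected. The limma fit called 37 of the 79 tested lower and 0 higher, where 8.31% of all probes so detected were called lower. Among the 35 detected on all 6 arrays, 28 were lower, 7 were higher and the median was -0.88, beside 0.06 for all probes detected on all 6.

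In several genes the further probe was bright and differed strongly. The other Myadml2 probe read 265, 359 and 209% against 8.04, 8.31 and 5.54% (log2 difference -5.24). The other Cd209a probe read 48.3, 137 and 194% against 4.02, 8.10 and 8.48% (-4.06), and that of Cd209c 37.4, 56.8 and 97.1% against 5.79, 4.33 and 4.64% (-3.60). In these 3 genes the healthy and tumor signals of the further probe did not overlap.

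In other genes the probes disagreed. The Hpca member had a log2 difference of -3.18, whereas its other probe, shown above, read 261, 189.7 and 100.1% in healthy skin and 584, 369 and 391% in the tumors, a difference of 1.36 with every tumor above every healthy array. The Taf12 member read 9.50, 8.88 and 2.07% against 9.17, 1.86 and 1.68% (log2 difference -0.87), and the other Taf12 probe 223, 224 and 121% against 485, 367 and 410.5% (1.20). On tumor 1 the background-subtracted signal of the Taf12 member was 0.859 of that array's limit. The Taf12 member targets an Ensembl transcript and the other probe the RefSeq one. The Dnah8 member had a log2 difference of -3.57, its probe detected on all 6 arrays -0.36 and 1 more probe, detected on no array, has no level to compare.

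Fbxo8, an F-box protein, had a member at -1.12 and further probes at 0.10 and 0.52. Kmt2d, a histone methyltransferase, had a member at -1.45 and further probes at -1.36 and 0.14. Rgs6, a regulator of G protein signalling, had a member at -2.41 and another probe at -0.26, in which tumor 1 read 20% and the other 5 arrays between 2.43 and 6.93%. Scn2a shows both kinds: of its further probes the one nearest the member differed by -3.68 and the one in an earlier part of the gene by -1.01, beside -3.19 for the member.

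**Figure D5:**
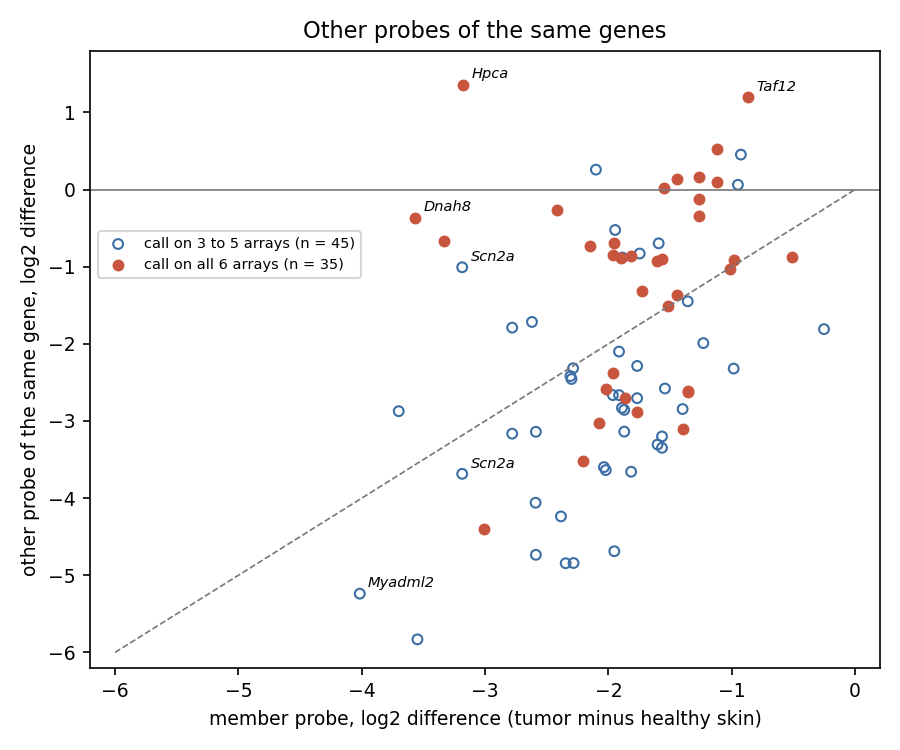
Log2 difference, tumor minus healthy skin, of 80 further probes detected on at least 3 arrays (vertical axis) against that of the member probe of the same gene (horizontal axis); filled points were detected on all 6 arrays (35), open points on 3 to 5 (45). The dashed line marks equal differences; 70 points lie below 0 on the vertical axis, and Hpca (1.36) and Taf12 (1.20) lie highest.

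The members lay on every autosome and X, at 0.50 to 1.16% of each chromosome's probes. The GC content of the 60 bases had a median of 41.7% in the members and 41.7% in all 39430 probes. The annotated position was longer than the probe, as for a probe across an intron, for 11 members (3.73%) and for 4.26% of all probes. A run of 25 bases was shared with a probe of another name for 7 members (2.37%) beside 5.0% of all probes, among them Vmn1r122 with Vmn1r178 and Rhox4a with Rhox4g, whose levels are therefore uncertain. A current symbol was found for 219 members (74.2%; 75% of all probes), of which 194 are protein-coding and 25 long noncoding RNA genes. Long noncoding RNA genes thus made up 8.47% of the members and 3.78% of all probes, a description that leaves 76 members without a symbol unclassed.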

How the data were processed

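The deposited intensity values come from 1-colour (Cy3) arrays read with Agilent Feature Extraction 10.7.3.1, per the file headers. Per the submitters' processing notes limma was used, with no version. The deposited series table holds log2 values that rank as the median spot signal does (Spearman 1 on every array; column medians 6.33 to 6.35); how it was centred is not given in the sources used here. Values here are processed signals on the log2 scale, less the array's 75th percentile over 59305 spots that are not controls; outlier spots were left out of values, not of calls, and spots of a probe averaged. limma 3.58.1 (lmFit and eBayes in R 4.3.3; two-sided p adjusted by Benjamini-Hochberg, threshold 0.05) was fitted without a filter on 55501 probes and tested on simulated data. Names came from RefSeq (GRCm38.p6, names only; 187 members by accession, 28 by symbol, 4 by synonym); positions are the array annotation's (mm9).

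The members, lists and rules were chosen with earlier results of these data known. Named genes were the 15 largest bounds with at most 2 per symbol stem, up to 4 per list or family, genes with 2 member probes, the 5 largest bounds per missing array, 6 with another probe detected in all tumors and 4 with the missing array furthest below all tumors; others, including members placed by tissue, were chosen after their values were seen. Motif shares and GC content of promoters were computed, but the check is void and not reported, since only 163 of 218 genes had a promoter in the table. The number of arrays limits the precision. Alternatives for the call, scaling, background, filter, block and left-out arrays were computed. Results for some genes are not reported here.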

Additional observations from a re-analysis of the deposited data

How the results depend on the processing

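The count of 295 depends on the call. With 10 times the additive error in place of 5 it was 316, of which 55 are members, and with 2.5 times it was 317 (60 members). With one limit relative to the 75th percentile on all arrays it was 542 at that of healthy skin 3 (98 members) and 543 at that of tumor 1 (27 members). These settings were chosen after seeing the data. The planned limits assumed another definition of the call and were run as written: 389 probes at 5.2 and 341 at 1.3 times the background SD, of which 19 and 165 are members. With only the software's test that a spot is above background as the call, it was 357, of which 11 are members. The count was 482 with the probes for long intergenic RNA kept. It was 307 to 497 with 1 array left out (484 without healthy skin 3, 497 without tumor 3). There the rule still asked for 2 healthy calls. Those counts follow from the same calls, and nothing is read from them. The members' median of -2.07 kept its sign throughout, but the rule largely fixes that sign, so nothing is read from it. The median was -1.18 with spike-in scaling, -0.92 with normexp background correction and -0.57 in the authors' deposited table. It was -2.66 to -1.81 with 1 array left out, the first without tumor 1. Members with a bound of at least 2-fold numbered 63, but 26 with median, 20 with quantile and 8 with spike-in scaling, and 235 over tumor 2 and tumor 3. Over all probes, 4531 calls became 8211 in the authors' deposited table, 8601 with a trend, 8023, 9198 and 8917 among probes detected on at least 1, 2 and 3 arrays, and 1102 to 5724 with 1 array left out (1621, 1102 and 1785 without healthy skin 1, 2 and 3, 1655 without tumor 2, 2514 without tumor 3). The cause of these changes was not tested. Same-numbered samples correlated at 0.09, 0.13 and -0.07, and the other pairs of a healthy and a tumor array at -0.25 to 0.15. With 3 arrays per group these values cannot show whether the numbers pair the samples, and the labels do not say. A replicate block gave 1809 calls and a members' median of -2.07. Slide row 1 held healthy arrays only, and with the row as a block the median was -2.08. Faint signal near background is the main limit: below the limit an array gives only a bound.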
